A study of Rattus norvegicus with 6 samples.

Results

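Copying DNA before a cell divides needs a fixed set of proteins, and the 50 genes described here encode them: origin licensing factors, the replicative helicase, clamp, polymerases and repair partners, and the enzymes that supply DNA building blocks. They were chosen by gene symbol from the deposited count table, and all 50 were found among its 29884 genes. Expression was measured by RNA sequencing of sciatic nerve from wild type rats after CCI, a chronic constriction model made by tying the nerve loosely. The compared groups are 3 libraries of injured nerve given the PLLA-PCL-RVC conduit, a polymer sleeve that the design text calls piezoelectric and loaded with ropivacaine, and 3 libraries of injured nerve left untreated. Both groups carry the injury. The sources used here give no strain, sex, age, time after injury or animal of origin, so the spread between libraries may be partly technical, and p-values measure only that spread.

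In the adult nerve most Schwann cells have left the cell cycle. After injury Schwann cells, macrophages, fibroblasts and endothelial cells can re-enter it. In G1 the origin recognition complex, with CDC6 and CDT1, loads the MCM2-7 helicase on DNA. In S phase CDC45 and GINS switch that helicase on, and primase, polymerases, clamp and ligase copy both strands. Many of these genes are transcribed under control of the E2F factors when a cell commits to S phase, while others are expressed in resting cells as well.

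Levels are given as CPM, counts scaled to a common library size, after trimmed mean of M-values (TMM) scaling, and fold changes as log2 of conduit over untreated with their standard errors (SE). A gene was called when its Benjamini-Hochberg adjusted p in edgeR's quasi-likelihood test over 15464 genes was under 0.05. The libraries held 38401951 to 42225086 counts. The Schwann cell genes S100b and Sox10 were at 3151 to 4640 and 302 to 365 CPM in conduit libraries, and at 738 to 854 and 136 to 139 CPM in untreated libraries, so the labelled tissue was present in every library. Each conduit library carries its own batch number and the untreated libraries carry 2 others. No batch holds both groups, so batch and treatment cannot be told apart in any value below. With scaling by library totals in place of TMM, the median log2 fold change of all tested genes moved to -0.43 from -0.04. The calls then split into 2291 higher and 6554 lower, against 3711 higher and 4049 lower with TMM.

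Conduit nerves had lower levels of most of the replication machinery. Of the 50 genes, 42 fell, 1 rose and 7 were not called, and 38 of them fell at least 2-fold. Over all 15464 tested genes, 50.2% were called, 26.2% lower and 24.0% higher, and 15.1% were lower by at least 2-fold. The median log2 fold change was -1.53 for the 50 genes, beside -0.04 for all tested genes. The conduit libraries lay wholly below the untreated libraries in 44 of the 50 genes, as they did in 32.2% of all tested genes. Summed over the 50 genes, the level was 556, 534 and 524 CPM in the conduit libraries, against 1353, 1565 and 1233 CPM in the untreated libraries. In bulk nerve, fewer dividing cells and less RNA per cell cannot be told apart. All 50 genes passed the filter on low counts. In 48 of them every conduit library passed the filter's minimum CPM, and in all 50 every untreated library did. Orc1 missed it in conduit replicate 2 and Cdc6 in conduit replicate 3, so these genes passed only with the untreated libraries. Of the 42 lower calls, 41 held under all 16 alternatives that could test them. The exception was Rpa2.

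**Figure D1:**
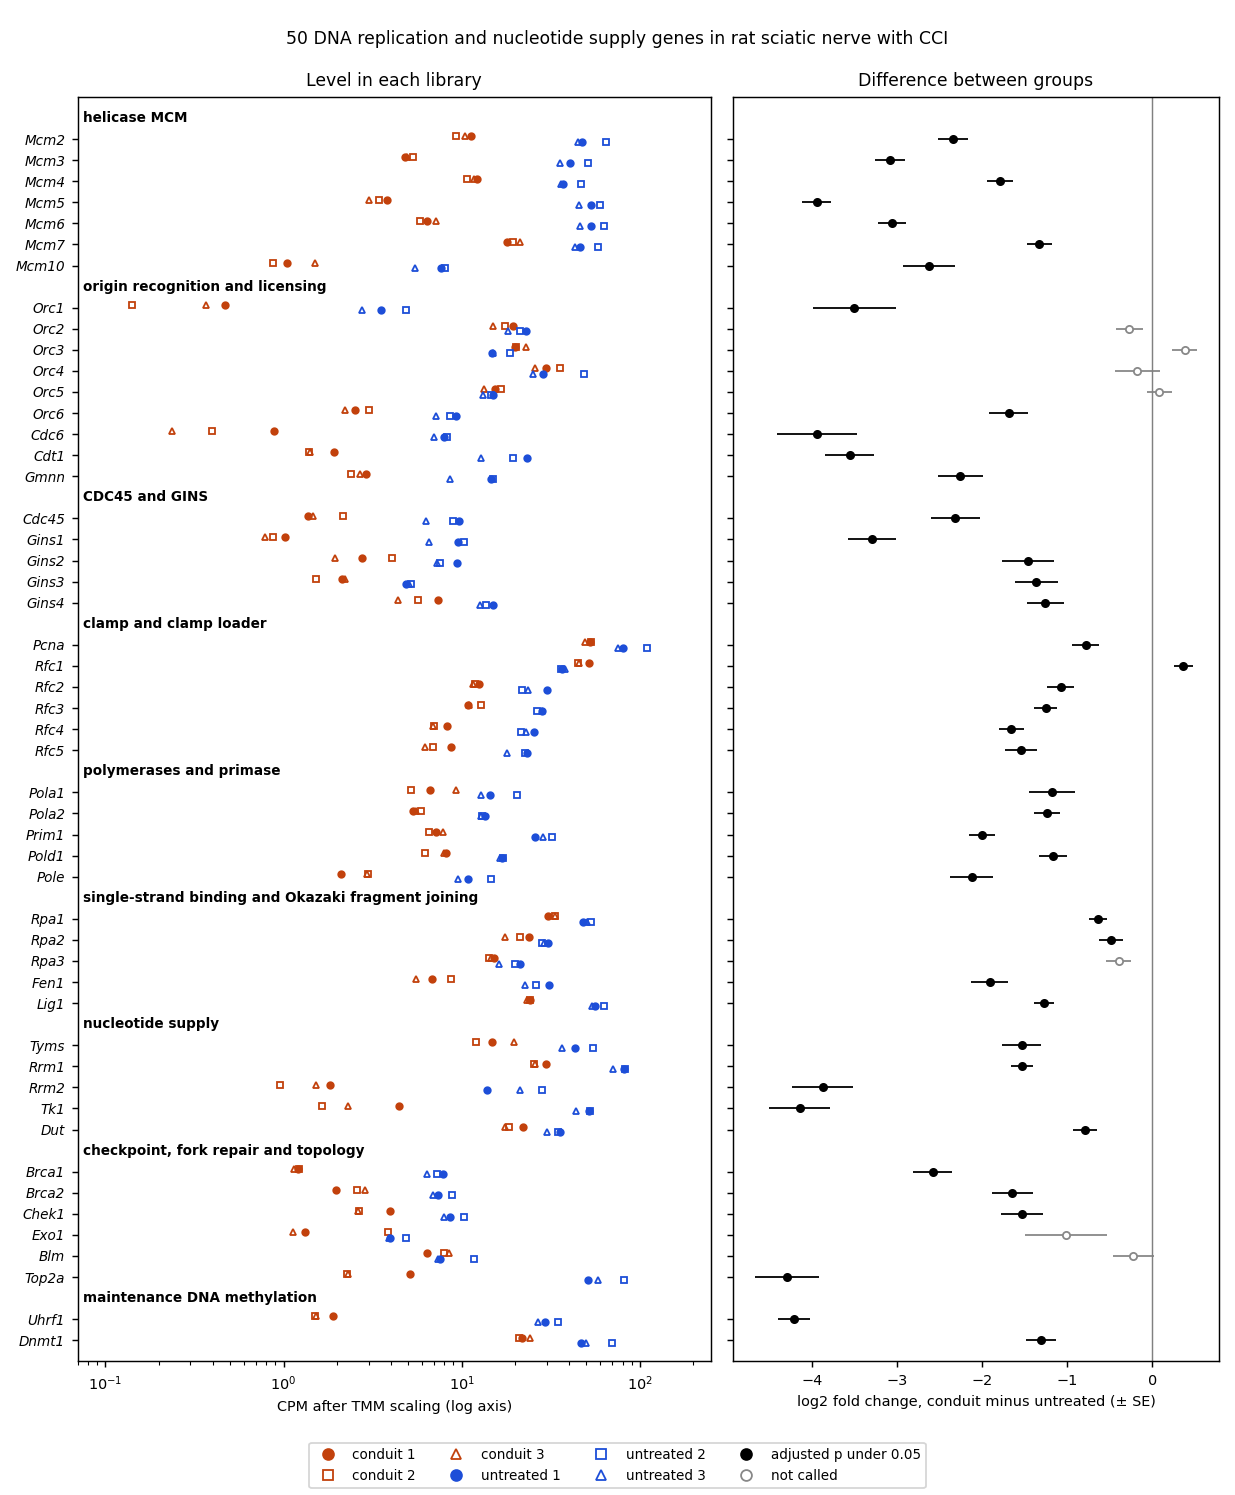
Level of each of the 50 genes in each library (left, CPM on a log axis, conduit in orange and untreated in blue) and its log2 fold change, conduit minus untreated, with its standard error (right; filled points have an adjusted p under 0.05). Fold changes run from -4.30 for Top2a to 0.38 for Orc3, and the points of the conduit libraries lie left of the untreated ones in 44 genes.

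The ring genes Mcm2 to Mcm7 and Mcm10, grouped here as 7 helicase genes, all fell, with a median log2 fold change of -2.63. Mcm2 to Mcm7 encode the ring that unwinds DNA at the fork. Mcm2, a proliferation marker in pathology, was at 11.2, 9.27 and 10.5 CPM in the conduit libraries and at 47.2, 64.5 and 45.2 CPM in the untreated libraries. The groups stood well apart, and its log2 fold change was -2.34 ± 0.18 (adjusted p = 0.000115). Mcm5 fell most in the ring (-3.94 ± 0.17), to 3.82, 3.45 and 3.04 CPM in the conduit libraries, against 53.4, 60.0 and 45.3 CPM in the untreated libraries. Mcm7 fell least (-1.33 ± 0.15), with 18.1, 19.5 and 21.2 CPM in the conduit libraries and 46.2, 58.1 and 43.1 CPM in the untreated libraries. Mcm3 (-3.08 ± 0.18), Mcm6 (-3.06 ± 0.16) and Mcm4 (-1.79 ± 0.15) lay between them. Mcm10, a scaffold that helps start the fork and is not part of the ring, was at -2.63 ± 0.31, which is the median of the 7.

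The ring has a fixed make-up with 1 copy of each subunit, so the transcript levels per gene length are of interest. In FPKM, which scales by length and by library totals, the 6 subunits lay farther apart in the conduit libraries than in the untreated libraries. The highest subunit exceeded the lowest 5.60, 6.71 and 8.28-fold in conduit replicates 1, 2 and 3, with Mcm7 at the top and Mcm5 at the bottom each time. In untreated replicates 1, 2 and 3 it did so 1.64, 1.57 and 1.52-fold. The ORC subunits also lay farther apart in conduit libraries, at 43.9, 156 and 48.1-fold, than in untreated libraries, at 6.51, 5.66 and 6.59-fold. Orc1 was the lowest each time, on 5 to 17 counts in the conduit libraries. GINS subunits lay farther apart as well, at 10.2, 7.43 and 8.58-fold in conduit libraries and 6.14, 6.94 and 6.71-fold in untreated libraries. RFC and RPA differed in this. The RFC subunits lay closer together in conduit libraries, at 1.97, 2.36 and 2.43-fold, than in untreated libraries, at 2.92, 2.77 and 2.81-fold. The RPA subunits overlapped between the groups, at 3.47, 3.66 and 4.52-fold in conduit libraries and 3.84, 3.89 and 3.04-fold in untreated libraries. Mcm7 averaged 6.53 FPKM and Mcm5 0.963 FPKM in conduit nerves, against 21.4 and 19.4 FPKM in untreated nerves. The Mcm7 gene also hosts 3 microRNA genes in its span, Mir25, Mir93 and Mir106b.

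**Figure D2:**
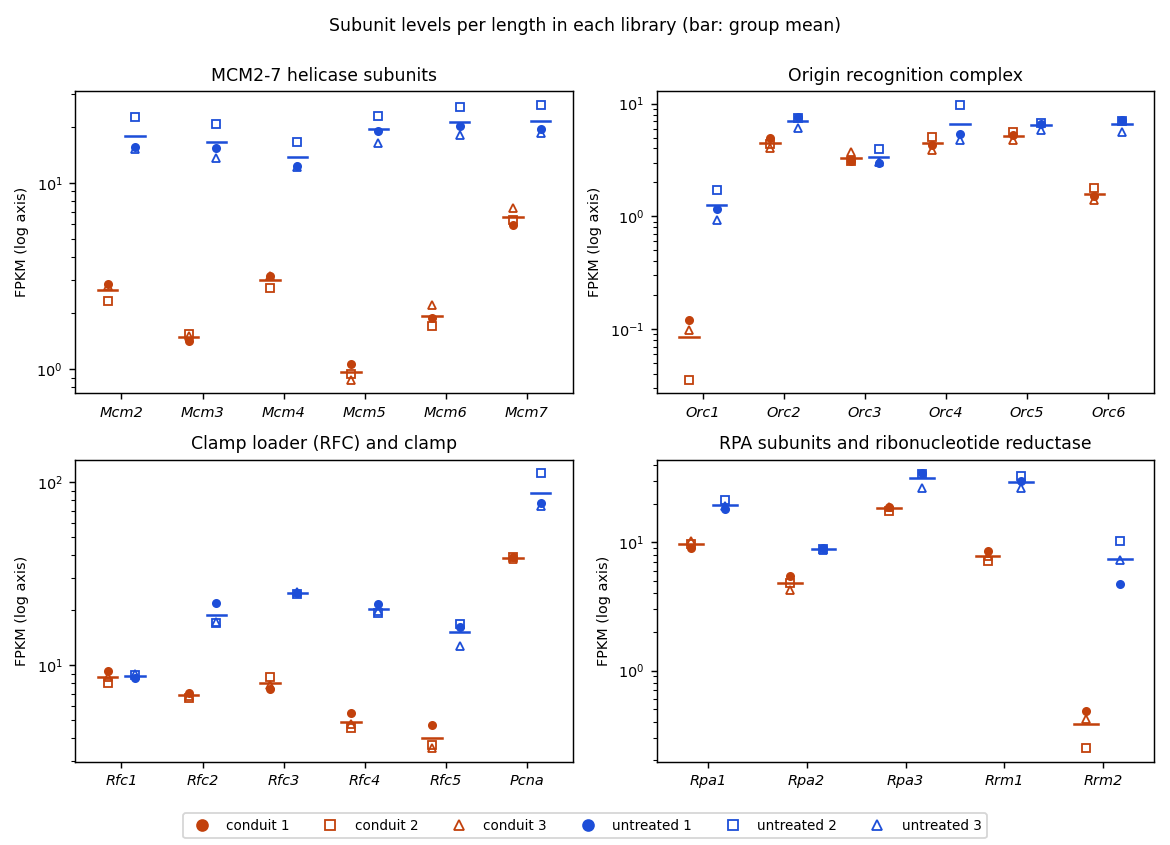
FPKM (log axis) of subunits of the MCM ring, ORC, the clamp and its loader, RPA and ribonucleotide reductase in each library, conduit in orange left of untreated in blue, with the group mean as a bar. The 6 MCM subunits spread up to 8.28-fold in conduit libraries and at most 1.64-fold in untreated libraries, and Orc1, Orc6 and Rrm2 are lower in every conduit library, while the libraries of the groups overlap in Orc3 and Rfc1.

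Because the helicase genes moved together, their promoters are shown. RefSeq promoter sequences of the GRCr8 assembly, 250 bases before to 50 after each start, were matched for 42 of the 50 genes by symbol. Mcm4, Orc1, Orc4, Cdc6, Gins4, Rpa3, Rrm2 and Blm were not matched. The 4 forms of the E2F-type motif searched were TTTCCCGC, TTTCGCGC, TTTGCCGC and TTTGGCGC, on either strand. At least 1 was found in 20 of the 42 genes (47.6%), beside 2.14% of all 33469 promoters in the table and 3.83% of the 12103 tested genes with a promoter. It was found in 18 of 37 matched genes that fell and in 2 of 5 that did not, Orc3 and Orc5. The 150 bases before the start are given below for 4 helicase genes, for Gins1 and Tyms, and for 2 genes that did not fall, Orc3 and Rfc1. Capitals mark the E2F-type letters, and where both strands match, the overlapping copies run together.
Mcm2 (chr4:122918095-122918244, minus strand): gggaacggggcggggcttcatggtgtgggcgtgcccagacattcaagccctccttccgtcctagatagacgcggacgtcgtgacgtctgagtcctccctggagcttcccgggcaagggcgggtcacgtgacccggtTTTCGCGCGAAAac
Mcm5 (chr19:13488663-13488812, plus strand): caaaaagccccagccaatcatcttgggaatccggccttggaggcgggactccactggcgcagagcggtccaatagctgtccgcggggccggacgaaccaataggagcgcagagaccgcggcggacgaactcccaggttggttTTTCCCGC
Mcm6 (chr13:42404353-42404502, minus strand): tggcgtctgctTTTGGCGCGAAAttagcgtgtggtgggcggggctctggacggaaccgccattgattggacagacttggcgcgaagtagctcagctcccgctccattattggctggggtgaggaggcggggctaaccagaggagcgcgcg
Mcm7 (chr12:22163179-22163328, minus strand): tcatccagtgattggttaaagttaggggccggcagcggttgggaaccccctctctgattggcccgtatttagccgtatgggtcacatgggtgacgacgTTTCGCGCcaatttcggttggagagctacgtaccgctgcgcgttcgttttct
Gins1 (chr3:160184770-160184919, plus strand): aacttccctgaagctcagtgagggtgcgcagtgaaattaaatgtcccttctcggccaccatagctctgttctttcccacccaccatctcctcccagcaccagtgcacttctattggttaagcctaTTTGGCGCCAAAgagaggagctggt
Tyms (chr9:120776084-120776233, minus strand): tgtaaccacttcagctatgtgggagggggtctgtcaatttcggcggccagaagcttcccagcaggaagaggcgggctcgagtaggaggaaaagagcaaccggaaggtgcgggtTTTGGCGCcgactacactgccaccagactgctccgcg
Orc3 (chr5:53977795-53977944, minus strand): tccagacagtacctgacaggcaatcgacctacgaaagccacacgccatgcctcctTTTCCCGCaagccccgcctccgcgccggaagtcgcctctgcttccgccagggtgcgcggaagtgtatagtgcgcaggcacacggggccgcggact
Rfc1 (chr14:43319848-43319997, plus strand): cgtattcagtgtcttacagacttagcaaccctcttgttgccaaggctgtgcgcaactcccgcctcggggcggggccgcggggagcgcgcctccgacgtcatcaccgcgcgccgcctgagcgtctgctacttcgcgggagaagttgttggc

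These matches describe letters and not bound sites. The Mcm2 and Gins1 copies are palindromes 14 and 25 bases before the start, the Mcm6 copy begins 139 bases before it, and Mcm5 holds a further pair 213 and 209 bases before it, outside the stretch shown. Mcm7 holds 1 further match 233 bases before it. The CCAAT box was found in 26 of the 42 genes (61.9%), beside 38.8% of tested genes with a promoter. TTTGAA, an element of late cell cycle promoters, was found in 4 of 42 (9.52%), beside 13.2%.

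Origin recognition and licensing genes divided by subunit. Orc1, Orc6, Cdc6, Cdt1 and Gmnn fell, whereas Orc2, Orc3, Orc4 and Orc5 were not called. Orc1, the ATPase subunit whose supply is tied to the cell cycle, rested on 17, 5 and 14 counts in the conduit libraries, or 0.467, 0.141 and 0.367 CPM, against 3.53, 4.89 and 2.76 CPM in the untreated libraries. Its log2 fold change was -3.50 ± 0.49. Cdc6, which loads the helicase with ORC, was at -3.94 ± 0.47, on 32, 14 and 9 counts in the conduit libraries. Both genes passed the filter on low counts only with the untreated libraries. With so few counts the size of the change is uncertain for Orc1 and Cdc6. Cdt1, the partner of Cdc6, was at -3.56 ± 0.29. Gmnn encodes geminin, the inhibitor that holds CDT1 back once S phase has begun, and fell less (-2.26 ± 0.27). Orc6 was at -1.69 ± 0.23.

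The core subunits Orc2 to Orc5 gave overlapping or nearly overlapping levels. Orc2 was at 19.3, 17.5 and 15.1 CPM in the conduit libraries and 22.9, 21.3 and 18.1 CPM in the untreated libraries (-0.27 ± 0.15, adjusted p = 0.187), and passed with library totals (-0.66, adjusted p = 0.00812). Orc4 was at 29.6, 35.5 and 25.7 CPM in the conduit libraries and 28.6, 48.9 and 25.0 CPM in the untreated libraries (-0.17 ± 0.26). Untreated replicate 2 set its spread, and without that library the value was 0.18. Orc5 was at 15.4, 16.6 and 13.3 CPM in the conduit libraries and 15.1, 14.6 and 13.1 CPM in the untreated libraries (0.08 ± 0.15 with TMM, -0.31 with library totals). Orc3 was at 19.9, 20.2 and 23.0 CPM in the conduit libraries and 14.8, 18.7 and 14.9 CPM in the untreated libraries, without overlap. It was not called (0.38 ± 0.15, adjusted p = 0.0664), passed without untreated replicate 2 (0.50, adjusted p = 0.02004) and with DESeq2 (0.41, adjusted p = 0.0418), and was at -0.0069 with library totals. Over all tested genes, 29.5% were higher in conduit libraries without overlap.

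Genes that turn the helicase on all fell. Cdc45, which joins the ring at the start of S phase, was at -2.32 ± 0.29. The GINS complex has 4 subunits, and Gins1 was at -3.29 ± 0.28, Gins2 at -1.46 ± 0.31, Gins3 at -1.37 ± 0.25 and Gins4 at -1.26 ± 0.22. Differences between subunits were not tested. Gins4 was at 7.34, 5.65 and 4.37 CPM in the conduit libraries and 14.95, 13.8 and 12.7 CPM in the untreated libraries. Gins2 was at 2.75, 4.07 and 1.94 CPM in the conduit libraries and 9.39, 7.53 and 7.23 CPM in the untreated libraries. Neither gene overlapped between the groups.

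The sliding clamp and its loader fell with 1 exception. Pcna, the clamp that holds polymerases on DNA and also serves in repair, was at 52.2, 53.2 and 49.2 CPM in the conduit libraries and 80.4, 109.9 and 75.8 CPM in the untreated libraries (-0.78 ± 0.16, adjusted p = 0.00580). Its conduit level was 58.1% of the untreated level, where that of Mcm5 was 6.495%. Of the loader, Rfc2 (-1.07 ± 0.16), Rfc3 (-1.25 ± 0.13), Rfc4 (-1.66 ± 0.15) and Rfc5 (-1.54 ± 0.19) fell. These 4 small subunits also serve in other loader complexes. Rfc1, the large subunit of the replicative loader, was the 1 gene of the 50 called higher, at 51.6, 45.3 and 45.7 CPM in the conduit libraries and 36.5, 35.9 and 38.04 CPM in the untreated libraries (0.37 ± 0.11, adjusted p = 0.0275). That call depended on the scaling. With library totals Rfc1 was at -0.019, and its FPKM averaged 8.66 in conduit nerves and 8.77 in untreated nerves. It did not pass without conduit replicate 1 (0.32, adjusted p = 0.0914), conduit replicate 2 (0.43, 0.0615), untreated replicate 1 (0.36, 0.0635) or untreated replicate 3 (0.39, 0.0528), nor with the replicate number as a block (0.37, 0.0529).

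All 5 polymerase and primase genes fell, with a median of -1.24. Prim1, the catalytic primase subunit that lays down RNA primers, was at 7.202, 6.56 and 7.86 CPM in the conduit libraries and 25.9, 32.0 and 28.7 CPM in the untreated libraries (-2.003 ± 0.15). Pold1, the catalytic subunit of the polymerase that copies the lagging strand, was at 8.22, 6.19 and 7.96 CPM in the conduit libraries and 16.8, 17.1 and 16.4 CPM in the untreated libraries (-1.17 ± 0.16). Both differences exceeded the spread between libraries several fold. Pole, of the leading strand polymerase, was at -2.12 ± 0.25, and Pola1 and Pola2, of the polymerase that extends primers, at -1.18 ± 0.27 and -1.24 ± 0.15.

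Proteins that coat exposed DNA strands and those that join fragments differed in size of change. Fen1, the flap nuclease, was at -1.91 ± 0.21. Lig1, the ligase that seals lagging strand fragments, was at 24.1, 24.1 and 23.2 CPM in the conduit libraries and 55.8, 62.9 and 53.7 CPM in the untreated libraries (-1.27 ± 0.12). The RPA subunits, which protect bared DNA in replication and in repair, moved less. Rpa1 was at 30.5, 33.4 and 33.2 CPM in the conduit libraries and 47.8, 52.9 and 50.3 CPM in the untreated libraries (-0.64 ± 0.11, adjusted p = 0.00262). Rpa3 was at 15.1, 14.2 and 14.5 CPM in the conduit libraries and 21.4, 20.03 and 16.2 CPM in the untreated libraries, without overlap, and was not called (-0.39 ± 0.15, adjusted p = 0.0596), though it passed without untreated replicate 3 (-0.50, 0.0327) and with library totals (-0.78, 0.00393). Rpa2 fell (-0.48 ± 0.14, adjusted p = 0.0251). Its call was lost without conduit replicate 2 (-0.47, adjusted p = 0.0960), conduit replicate 3 (-0.33, 0.102), untreated replicate 1 (-0.46, 0.0610) or untreated replicate 3 (-0.49, 0.0594).

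All 5 nucleotide supply genes fell. Rrm1 and Rrm2 encode the large and small subunits of ribonucleotide reductase, which makes deoxyribonucleotides. Rrm1 was at 29.9, 25.5 and 25.9 CPM in the conduit libraries and 81.1, 83.1 and 70.3 CPM in the untreated libraries (-1.53 ± 0.13). Rrm2, whose protein builds up in S phase, was at 1.81, 0.961 and 1.52 CPM in the conduit libraries and 13.8, 28.2 and 21.2 CPM in the untreated libraries (-3.88 ± 0.35, adjusted p = 0.000182). Its conduit level was 6.79% of the untreated level, beside 34.7% for Rrm1. Tk1, the cytosolic thymidine kinase of S phase, was at 4.43, 1.64 and 2.30 CPM in the conduit libraries and 52.2, 52.2 and 44.1 CPM in the untreated libraries (-4.15 ± 0.36). Tyms, thymidylate synthase, was at 14.7, 11.98 and 19.8 CPM in the conduit libraries and 43.0, 54.9 and 36.6 CPM in the untreated libraries (-1.53 ± 0.23). Dut, which removes dUTP so that uracil is not built into DNA, fell least (-0.79 ± 0.14). None of the 5 overlapped between the groups.

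Checkpoint, repair and topology genes were mixed. Top2a, the topoisomerase that untangles sister chromosomes, had the lowest fold change of the 50, at 5.11, 2.26 and 2.30 CPM in the conduit libraries and 51.1, 81.1 and 58.1 CPM in the untreated libraries (-4.30 ± 0.38, adjusted p = 0.000162). Brca1 (-2.58 ± 0.23) and Brca2 (-1.64 ± 0.24), which work in repair by homologous recombination, fell, as did Chek1, the kinase that guards stalled forks (-1.53 ± 0.25). Blm, the helicase that dissolves recombination intermediates, overlapped between the groups, with 6.41, 7.97 and 8.49 CPM in the conduit libraries and 7.57, 11.7 and 7.41 CPM in the untreated libraries (-0.23 ± 0.24, or 0.026 without untreated replicate 2). Exo1, an exonuclease of repair, was at 1.32, 3.84 and 1.13 CPM in the conduit libraries and 3.94, 4.89 and 3.89 CPM in the untreated libraries. Conduit replicate 2 lay just below the untreated libraries, and the gene was not called (-1.02 ± 0.48, adjusted p = 0.119). Without that library it passed (-1.77, adjusted p = 0.00910), as it did with library totals (-1.42, adjusted p = 0.0362), with the replicate number as a block (-1.22, adjusted p = 0.0445) and in the 3 fits to FPKM (adjusted p = 0.0153 to 0.0295).

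The pair that copies DNA methylation marks to the new strand fell unequally. Uhrf1, which recognises hemimethylated DNA behind the fork, was at 1.90, 1.498 and 1.52 CPM in the conduit libraries and 29.4, 34.8 and 26.9 CPM in the untreated libraries (-4.21 ± 0.19, adjusted p = 6.49e-05). Dnmt1, the methyltransferase it brings in, was at 21.8, 21.1 and 24.2 CPM in the conduit libraries and 46.7, 69.6 and 50.1 CPM in the untreated libraries (-1.31 ± 0.18).

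Several of these enzymes have a paralog or partner that resting cells also use, and the ratio within a library does not depend on how libraries are scaled. For 10 pairs the log2 ratio of counts was compared by a two-sided exact permutation test, for which 3 against 3 libraries allow no p below 0.1. All 10 pairs were separated without overlap and gave an exact p = 0.1 (0.1 adjusted over the 10). Of all tested genes, 32.2% were lower and 29.5% higher in conduit libraries without overlap, and no such share was taken over other gene pairs. The pairs were chosen with the fall of proliferation genes known. As 0.1 is also the smallest possible p, the test adds no support to the single-gene calls. Top2a over Top2b, the topoisomerase of resting cells, was at -4.73, -5.98 and -5.98 in the conduit libraries and -0.67, -0.55 and -0.76 in the untreated libraries. Rrm2 over Rrm2b, the p53-inducible small subunit that serves outside S phase, averaged -4.14 ± 0.43 in conduit and 0.38 ± 0.27 in untreated nerves (SD, n = 3 each), a difference of -4.52 (exact p = 0.1). In conduit libraries Rrm2 thus had fewer counts than Rrm2b, and in untreated libraries more. Tk1 over Tk2, the mitochondrial thymidine kinase, changed sign as well, with -2.81 ± 0.72 in conduit and 1.42 ± 0.24 in untreated nerves. A ratio moves with both of its genes. With TMM scaling the denominators Lig3 (0.69, adjusted p = 0.00716), Top2b (0.52, adjusted p = 0.0290), Dnmt3a (0.36, adjusted p = 0.0494) and Rrm2b were themselves called higher in conduit nerves, whereas none of them passed with library totals, where Dnmt3a was at -0.020. Dnmt3a lost its call whichever library was left out (adjusted p = 0.0569 to 0.121), and Top2b did without any library but untreated replicate 2 (adjusted p = 0.0648 to 0.0851). Lig1 over Lig3 differed by -1.97 and Dnmt1 over Dnmt3a, a methyltransferase that sets new marks, by -1.64. Mcm2 over Mcm9, a helicase of recombination, differed by -2.55.

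Partners within the replication machinery moved apart too. Orc1 over Orc2 differed by -3.31 between conduit and untreated nerves, Rrm2 over Rrm1 by -2.33 and Cdt1 over Gmnn by -1.31. The Orc1 ratio rests on 5 to 17 Orc1 counts in the conduit libraries, so its size is uncertain. The Cdt1 to Gmnn log2 ratio was -0.58, -0.79 and -0.91 in the conduit libraries and 0.68, 0.38 and 0.58 in the untreated libraries. Pcna over Mcm2 was the 1 pair that was higher in conduit nerves, at 2.22, 2.52 and 2.23 against 0.77, 0.77 and 0.74 in untreated nerves.

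**Figure D3:**
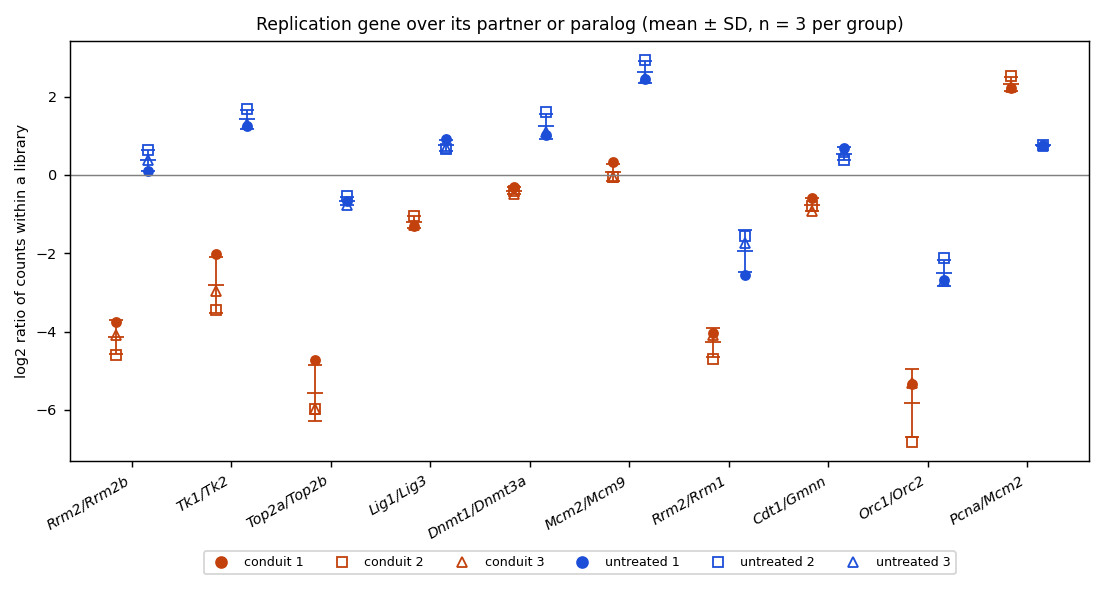
Log2 ratio of counts within each library for 10 gene pairs, conduit in orange left of untreated in blue, with mean and SD of 3 libraries. In 9 pairs all conduit libraries lie below all untreated libraries, and in Pcna/Mcm2 they lie above.

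Lists of related genes that are not among the 50 give the setting. Of 24 other fork and origin genes 19 fell and 1 rose, with a median of -1.28. Dbf4 (-3.70 ± 0.30), which activates the kinase that fires origins, and Clspn (-4.19 ± 0.34), the fork adaptor claspin, had the smallest adjusted p. Rnaseh2a, a nuclease that removes RNA from DNA, was called higher (0.75 ± 0.22, adjusted p = 0.0266), but did not pass with library totals (0.36, adjusted p = 0.165) or without conduit replicate 1 (0.68, 0.0729) or conduit replicate 2 (0.76, 0.0659). Of 18 fork repair genes 14 fell and 2 rose. Eme1, part of a junction nuclease, was at -4.33 ± 0.37, but rested on 7, 5 and 5 counts in the conduit libraries and passed the filter on low counts only through the untreated libraries, so the size of its change is uncertain. Fanci, of the crosslink repair pathway (0.88 ± 0.21), and Wee1, the kinase that delays mitosis (0.83 ± 0.22), were called higher. Neither passed with library totals (Fanci 0.48, adjusted p = 0.0838, and Wee1 0.44, adjusted p = 0.138), and Wee1 did not pass without conduit replicate 2 (0.78, 0.0514). Of 9 chromatin assembly genes 8 fell, among them Chaf1b (-3.42 ± 0.27) and Asf1b (-4.44 ± 0.36), which place histones on new DNA, and Asf1a, the paralog of Asf1b, was at -0.04 ± 0.15.

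Nucleotide genes outside the core set were mixed. Of 21 genes of de novo synthesis 18 fell and 1 rose, with a median of -0.89. Shmt2, which makes one-carbon units in mitochondria, was at -1.74 ± 0.15, and Umps, the last enzyme of UMP synthesis, at -0.9997 ± 0.12. Ctps2 was called higher (0.43 ± 0.15, adjusted p = 0.0496), and lost that call whichever library was left out, at 0.32 to 0.52 (adjusted p = 0.0568 to 0.128). Of 13 salvage and breakdown genes 7 fell and 3 rose. Uck2, a uridine-cytidine kinase (-1.44 ± 0.14), and Hprt1, of purine salvage (-1.05 ± 0.11), fell. Dpyd, which degrades uracil and thymine, rose (1.91 ± 0.28). Rrm2b was at 24.5, 23.7 and 26.0 CPM in the conduit libraries and 12.8, 18.1 and 16.3 CPM in the untreated libraries (0.65 ± 0.16, adjusted p = 0.0112). It did not pass with library totals (0.26, adjusted p = 0.232), nor did Dguok, a mitochondrial deoxyguanosine kinase (0.52 ± 0.18 with TMM, 0.15 with library totals). Dguok also lost its call without conduit replicate 1 (0.58, adjusted p = 0.0673), conduit replicate 2 (0.60, 0.0657), conduit replicate 3 (0.48, 0.0963), untreated replicate 2 (0.40, 0.0719) or untreated replicate 3 (0.54, 0.0812).

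Of 10 genes for the upkeep of mitochondrial DNA 3 fell and 1 rose, with a median of -0.44. The share that fell, 30%, was near the 26.2% of all tested genes, and Polg, the mitochondrial polymerase, was at 0.02 ± 0.11. Tfam (-0.52 ± 0.12), which packs mitochondrial DNA, and Primpol (-1.74 ± 0.38), a primase used in nucleus and mitochondria, fell. Twnk, the mitochondrial helicase, was called higher (0.64 ± 0.18). It did not pass with library totals (0.25, adjusted p = 0.224), nor without conduit replicate 1 (0.63, 0.0604), conduit replicate 2 (0.59, 0.0730) or untreated replicate 3 (0.62, 0.0577). Of 6 translesion polymerase genes, which bypass damaged bases, Polh fell (-1.14 ± 0.16) and 5 were not called. Rev1 among them was at 0.30 ± 0.13 with TMM and -0.09 with library totals.

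Mitosis genes had larger fold changes than the replication genes. All 18 fell, with a median of -3.78, and 16 of them fell at least 8-fold, beside 11 of the 50 replication genes and 3.76% of all tested genes. Plk1 (-5.05 ± 0.28) and Aurkb (-4.33 ± 0.25), kinases of mitosis, had the smallest adjusted p. Summed over the 18 genes, the level was 50.8, 31.1 and 32.9 CPM in the conduit libraries and 401, 584 and 447 CPM in the untreated libraries.

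**Figure D4:**
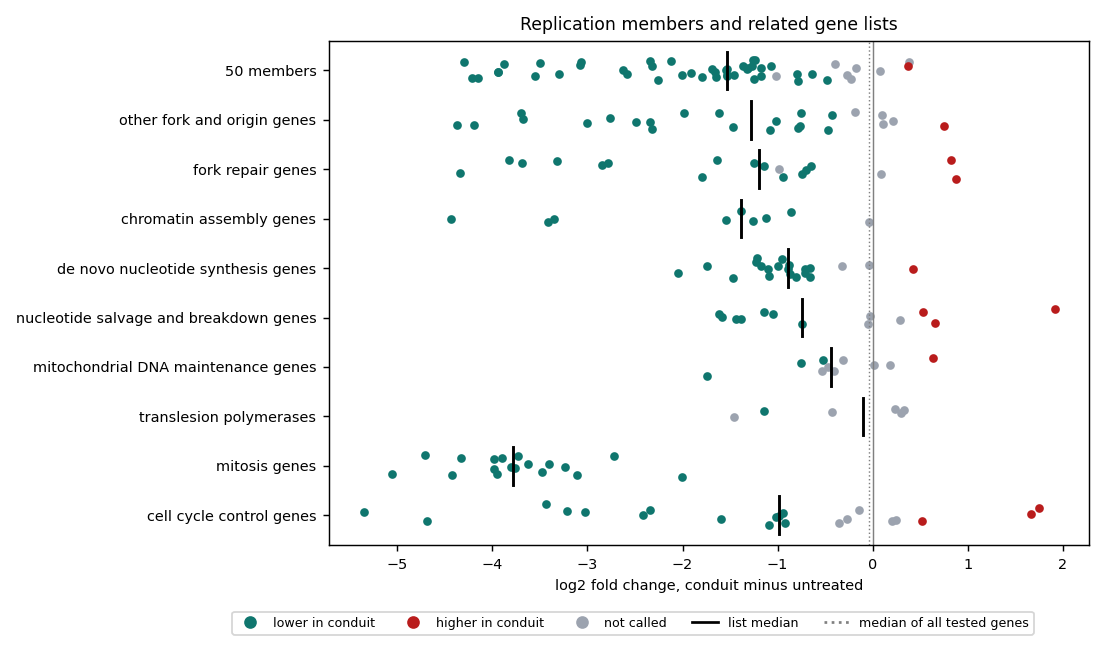
Log2 fold change, conduit minus untreated, of each gene of the 50 and of 9 related lists, coloured by call, with the list median as a black bar and the median of all tested genes as a dotted line. Medians run from -3.78 for mitosis genes to -0.10 for translesion polymerases, with the 50 replication genes at -1.53.

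Among conduit libraries, replicate 1 was the highest in 24 of the 50 genes and the lowest in 10, and the highest in 16 of the 18 mitosis genes. Untreated replicate 2 was the highest of its group in 32 of the 50 genes and in 17 of the 18 mitosis genes, and untreated replicate 3 was the lowest in 38 of the 50. Within-group spread was small beside most differences, with a median coefficient of variation of 13.4% in conduit and 13.9% in untreated nerves. The most variable gene was Exo1 in the conduit group, at 72.3%, and Orc4 in the untreated group, at 37.6%.

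Markers of the cell types that a nerve can hold differed by type. All 10 macrophage markers fell, with sums of 429.6 to 762 CPM in conduit libraries and 2903 to 3568 CPM in untreated libraries, and none was at 0 in a whole group. Of 7 T cell markers 6 fell, with sums of 4.1 to 6.0 CPM in conduit libraries and 50.9 to 137 CPM in untreated libraries. Cd8a made up most of the untreated sum, at 113, 60.9 and 32.9 CPM, and was at 0.962, 0.678 and 0.445 CPM in conduit libraries. Cd3e was at 3.40, 2.24 and 2.51 CPM in untreated libraries and 0.632, 0.763 and 0.498 CPM in conduit libraries. Cd3g was not called. Of 8 Schwann cell markers 6 rose and Ngfr, a gene of immature and repair Schwann cells, fell. None of the 8 was at 0 in a whole group. Of 4 granulocyte markers tested 3 fell and 1 was not called. Of 7 fibroblast and perineurium markers 4 rose, 1 fell and 2 were not called, with sums of 10728 to 20010 CPM in conduit libraries and 5530 to 10227 CPM in untreated libraries. Col1a1, Slc2a1, Itgb4 and Cldn1 rose, Pdgfra fell (-0.95, adjusted p = 0.0350), and Dcn and Lum were not called. The largest part of the sum was Col1a1, whose levels overlapped between the groups. Of 5 endothelial markers 2 fell and 3 were not called, with a median of -0.15 and sums of 367 to 569 CPM in conduit libraries and 574 to 802 CPM in untreated libraries. Within the conduit group the mitosis sum was highest in replicate 1. In that library the macrophage, fibroblast and perineurium, endothelial, granulocyte and adipocyte marker sums were the lowest of the group. The B and plasma cell and erythroid sums were the highest there, and the Schwann cell, T cell and skeletal muscle sums lay between. Within the untreated group the mitosis sum was highest in replicate 2. There the endothelial sum was the highest of the group, the macrophage, granulocyte and Schwann cell sums were the lowest, and the others lay between. The part of these markers in the replication values was not tested. Skeletal muscle markers summed to 3.45 to 8.38 CPM in conduit libraries, and to 10574, 76.6 and 8.51 CPM in untreated replicates 1, 2 and 3. Without untreated replicate 1, 41 of the 50 genes were called lower, with a median of -1.53.

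**Figure D5:**
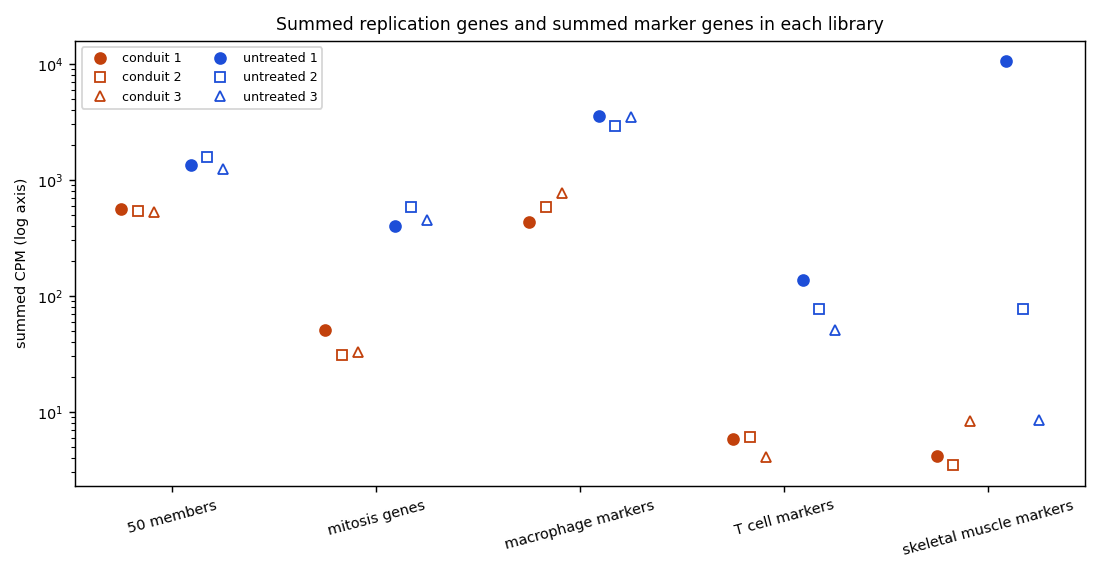
Summed CPM (log axis) of the 50 replication genes, of mitosis genes and of 3 sets of cell type markers in each library, conduit in orange left of untreated in blue. Replication, mitosis, macrophage and T cell sums are lower in every conduit library than in every untreated library, and the muscle sum is high in untreated replicate 1. The T cell sum of the untreated libraries is mostly Cd8a.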

How the data were processed

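RNA sequencing of 6 libraries of rat sciatic nerve was analysed from the raw count per gene that the authors deposited. The deposited FPKM values were used for levels between genes and for alternatives. The mRatBN7.2 build and the tools HISAT2, fastp, HTSeq and DESeq2 are named, per the submitters' processing notes, with no version or role. In 20504 genes checked, FPKM equalled the count over 1 gene length and the library total within a relative tolerance of 0.0001. No row lacked a gene name, and 0 columns were unused.

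Counts were tested with edgeR 4.0.16 in R 4.3.3 (quasi-likelihood F test, two-sided, TMM scaling, filterByExpr with a minimum count of 10, group alone in the model), with Benjamini-Hochberg adjustment over 15464 genes. The test was first checked on simulated data. The alternatives tried were RLE scaling, library totals, DESeq2 1.42.0, no filter or 5 CPM in 3 libraries, a replicate block, robust dispersions, limma 3.58.1 on log2(FPKM + 1) or log2(FPKM + 0.1), filtered at 0.5 FPKM in 3 libraries or not, and each library left out. Ratios used counts with 0.5 added.

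The 50 genes, the lists and the tests were chosen with earlier results of these data known, among them that proliferation genes fell. Values per library are given for the 2 most abundant genes of each role, the 3 lowest and 3 highest fold changes, genes not called lower, Mcm2 and Rrm2. Mcm5 and Orc1 were added after their values were seen. From each list the 2 genes with the smallest adjusted p and up to 3 called against the trend are named, except items that are not reported here, and others named were chosen after their values were seen. Whether strand was kept is not given in the sources used here. In the GRCr8 annotation 8 of the 50 genes (Lig1, Fen1, Orc3, Orc4, Rrm2, Uhrf1, Brca2 and Gins2) overlap another protein-coding gene, so reads may be shared. Of the markers listed, Trac and Mylpf had no row.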

Additional observations from a re-analysis of the deposited data

How the results depend on the processing

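Between 41 and 45 of the 50 genes were called lower under every alternative. The number called lower by at least 2-fold and the share of promoters with an E2F-type motif (42.9% with 150 bases before the start, 35.7% with TTTCGCGC or TTTGGCGC alone) kept within 1.5 times their value. The number called higher was 1, and became 2 with DESeq2, 0 with library totals, a replicate block or any fit to FPKM, and 0 to 2 with a library left out. Signs turned only in 5 of the 50 genes, Orc3, Orc4, Orc5, Rfc1 and Blm, whose main values ran from -0.23 to 0.38. Rfc1 among them was the 1 gene called higher. Orc3 was at -0.0069 with library totals and -8.5e-05 with limma on log2(FPKM + 1), filtered or not. Orc5 was at -0.31 with library totals, -0.26 with limma on log2(FPKM + 1), filtered or not, and -0.30 on log2(FPKM + 0.1). Rfc1 was at -0.019 with library totals, -0.018 with limma on log2(FPKM + 1), filtered or not, and -0.020 on log2(FPKM + 0.1). Rev1, outside the 50, was at -0.088 with library totals, -0.076 on log2(FPKM + 1) and -0.089 on log2(FPKM + 0.1). These settings scale by library totals and make no adjustment of the kind that TMM makes. Which scaling fits these libraries better was not tested. With a library left out, Orc4 ran from -0.35 to 0.18 and Blm from -0.34 to 0.026, each highest and above 0 without untreated replicate 2, and the cause was not tested. Orc1 and Exo1 were not tested with the filter of 5 CPM, under which 48 of the 50 genes were tested and 41 called lower. Same-numbered libraries deviated from their group means with correlations of 0.144, -0.0279 and 0.0636, and differently numbered ones with -0.147 to 0.103. These values cannot decide whether the numbers pair the libraries. With the replicate block 43 of the 50 genes were lower, Exo1 being added. Orc1 rests on 5 to 17 counts per conduit library, so its fold change is the least precise of those called.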

Other observations

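Genes that control entry into S phase went in both directions. Of 21 such genes outside the 50, 13 fell and 3 rose, with a median log2 fold change of -0.99. E2f8, a repressor E2F that is itself made in S phase, fell (-5.35 ± 0.36), to 0.137, 0.170 and 0.157 CPM in conduit libraries, against 5.32, 8.502 and 5.50 CPM in untreated libraries. Its conduit values rest on 5, 6 and 6 counts and it passed the filter on low counts only through the untreated libraries, so the size of its change is uncertain. E2f1, an activator E2F, fell (-0.93 ± 0.16), as did E2f2 (-2.34 ± 0.31), E2f4 (-0.94 ± 0.12) and E2f7 (-3.21 ± 0.34). E2f3, E2f5 and E2f6 were not called. Cdkn1b, the CDK inhibitor p27, rose to 338, 376 and 280.5 CPM in conduit libraries, against 90.0, 101 and 104 CPM in untreated libraries (1.75 ± 0.16, adjusted p = 0.000166). Cdkn1c, the related inhibitor p57, rose as well (1.67 ± 0.41, adjusted p = 0.0119). Cdkn1a, the inhibitor p21 of the same family, was called lower (-0.99, adjusted p = 0.0389). It lost that call with a replicate block (-0.93, adjusted p = 0.0940) and without conduit replicate 1, 2 or 3 or untreated replicate 1 (-1.14 to -0.58, adjusted p = 0.0535 to 0.116). Rb1, the retinoblastoma gene, was called higher (0.51 ± 0.16), but did not pass with library totals (0.13, adjusted p = 0.576) or without conduit replicates 1, 2 or 3 or untreated replicates 1 or 3 (0.43 to 0.59, adjusted p = 0.0505 to 0.0852).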
